A study of Mus musculus with 8 samples.

Results

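The GIMAP genes encode GTPases of immunity-associated proteins, a family of small guanine nucleotide-binding proteins found mainly in lymphocytes. The family was taken as the rows whose symbol was Gimap1, Gimap3, Gimap4, Gimap5, Gimap6, Gimap7, Gimap8 or Gimap9, which gave 8 of the 28239 symbols in the table. The cells were splenic naïve CD4+ T cells of mice on the C57BL/6 background, wild type (WT) or labelled Alox15-/- (without the lipid mediator enzyme 15-lipoxygenase), which had been differentiated to regulatory T cells (Tregs) for 2 days with IL-2, TGF-β and beads carrying antibodies to CD3 and CD28. MACE-seq, in which transcripts are counted from reads near their 3′ ends, was run on their RNA in 4 libraries per genotype. Both groups received the same culture, and young adult mice of both sexes were used according to the methods. The labels name no promoter or cell type for the Alox15 deletion. GIMAP proteins share a GTPase domain, sit mostly on intracellular membranes such as those of the endoplasmic reticulum, mitochondria and lysosomes, and are known for their part in the survival and homeostasis of lymphocytes. Loss of GIMAP5 causes lymphopenia in rats and mice, and loss of GIMAP1 removes mature T and B cells.

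The libraries held between 3723151 and 9538962 counts, and levels are given as CPM, the counts on a gene scaled to a common library total by edgeR's TMM method. The targeted gene went against its label: Alox15 had 255 to 454 reads per library where the label says Alox15-/- and 12 to 77 where it says WT (log2 fold change 3.65, standard error 0.30, edgeR quasi-likelihood adjusted p = 1.08e-05), so every direction below follows the labels, with Alox15-/- set against WT. Which exons the allele lacks is not given in the sources used here, and reads from a 3′ end outside the deleted part would not check the label. T cell markers were present in every library, with the 11 genes of the list summing to between 3206 and 3493 CPM in the libraries labelled Alox15-/- and between 3463 and 3612 CPM in those labelled WT, and the Treg list, which holds Foxp3, summed to between 2422 and 2880 CPM over all 8. Marker sums of other cells were higher in each library labelled Alox15-/- than in each labelled WT for 5 lists, those of erythroid, mast cell and basophil, eosinophil, myeloid, and NK and γδ T cells. In bulk RNA, fewer cells of a type and less RNA per cell cannot be told apart. The family was chosen by its gene symbols with its library-scaled counts in these same groups in view. Its differences between the groups are therefore given as a description, without a test.

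The 8 genes form 1 cluster on chromosome 6, from 48647234 to 48770851 in GRCm38, a span of 124 kb that holds 6 genes on the plus strand and 2, Gimap6 and Gimap3, on the minus strand. In chromosome order they are Gimap8, Gimap9, Gimap4, Gimap6, Gimap7, Gimap1, Gimap5 and Gimap3, with gaps of 2.40 kb (between Gimap1 and Gimap5) to 15.3 kb (between Gimap8 and Gimap9). What the members share in sequence is the P-loop, the short glycine-rich stretch with which GTPases hold the phosphates of the nucleotide. The codons of this loop were found in the coding sequence of each of the 8 members, once in 7 of them and 3 times in Gimap8, the member with repeated GTPase domains and the longest coding sequence (2064 bases). The loops of 6 members are shown because they set apart the near-identical pair of Gimap3 and Gimap5 from the others, with capitals marking the codons that the loop motif fixes:
Gimap3, chr6:48765887-48765910, minus strand: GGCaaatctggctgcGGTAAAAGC
Gimap5, chr6:48752594-48752617, plus strand: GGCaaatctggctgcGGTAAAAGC
Gimap4, chr6:48690421-48690444, plus strand: GGAaaaactggagcaGGAAAGAGT
Gimap7, chr6:48723524-48723547, plus strand: GGGaaaacaggaagtGGAAAGAGC
Gimap6, chr6:48702750-48702773, minus strand: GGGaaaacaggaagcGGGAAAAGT
Gimap8 copy 1, chr6:48650256-48650279, plus strand: GGGaaacagggcgcaGGCAAAAGT
Gimap8 copy 2, chr6:48656119-48656142, plus strand: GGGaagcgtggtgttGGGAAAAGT
Gimap8 copy 3, chr6:48658746-48658769, plus strand: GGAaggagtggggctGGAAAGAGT
Gimap3 and Gimap5 carry the same 24 bases in this loop, and their coding sequences were 97.9% identical over 720 aligned bases, the closest pair of the family. The next longest alignment, of Gimap7 and Gimap9, was 71.9% identical over 526 bases. Since MACE-seq reads come from the 3′ ends, the last 500 bases of each member's transcripts were compared with all GENCODE transcripts. For Gimap3, Gimap4, Gimap5, Gimap6, Gimap7 and Gimap9 no other gene matched at 90% identity over 50 bases, so Gimap3 and Gimap5 differ where the reads fall. The ends of Gimap1 transcripts matched Gm10310 over 322 bases at 90.4% and the ends of Gimap8 transcripts matched Gm37022 over 360 bases at 91.7%, so the counts of these members are less certain. The annotated gene Gm28053 runs across Gimap7, Gimap1 and Gimap5 on the same strand and was counted with between 2 and 11 reads per library. Gimap1os overlaps Gimap1 on the other strand over 2391 bases, and since the counting is not stated to use strand, reads of these genes cannot be told apart there.

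Gimap4 was the most abundant member over the 8 libraries, at a mean of 81.5 CPM, followed by Gimap6 (66.1 CPM), Gimap3 (60.2 CPM), Gimap9 (52.6 CPM), Gimap1 (41.8 CPM), Gimap8 (29.3 CPM), Gimap5 (18.02 CPM) and Gimap7 (5.06 CPM). Neighbours at the lower end of this order did not change places, with Gimap8 above Gimap5 and Gimap5 above Gimap7 in all 8 libraries. At the upper end the order was not fixed: Gimap4 lay above Gimap6 in all 4 libraries labelled Alox15-/- but in 1 of 4 labelled WT, and Gimap6 lay above Gimap3 in 5 of 8 libraries. A 3′ assay gives about 1 fragment per transcript, so these levels were not divided by length. Per kb of annotated exon, Gimap4 remained first at a level of 44.4 CPM per kb, while Gimap9 moved from the fourth place to the second (32.1 CPM per kb) and Gimap6 from the second to the fourth (18.9 CPM per kb).

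**Figure D1:**
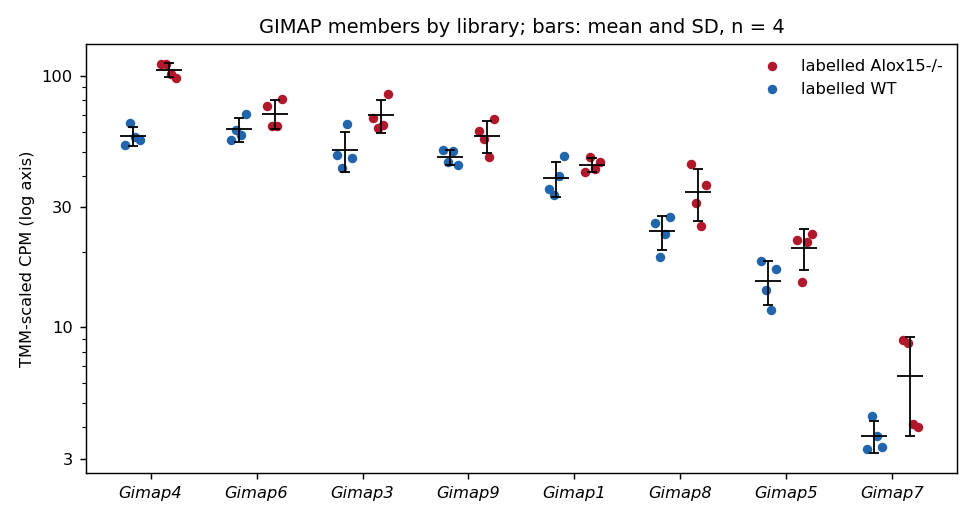
Level of each GIMAP member in each library, in TMM-scaled CPM on a log axis, ordered by mean level; points are libraries, and the horizontal and vertical bars give the mean and SD of 4 libraries. For Gimap4 all 4 libraries labelled Alox15-/- (97.9 to 111 CPM) sit above all 4 labelled WT (53.2 to 64.7 CPM), whereas the groups of the other 7 members overlap.

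Each of the 8 members had a fitted log2 fold change above 0, as did 48.2% of all 12700 genes tested, and the differences ranged from 0.18 for Gimap1 to 0.87 for Gimap4, with a median of 0.46 against -0.007 over all genes tested. All 8 passed the filter on low counts, with at least 3.28 scaled CPM in every library, so no member entered through the higher group alone. In the fit over all genes 1 of the 8, Gimap4, passed an adjusted p of 0.05, where 1.24% of all genes tested did in either direction and 1.05% as higher genes. This count belongs to the values with which the family was chosen, and nothing is read from it.

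Gimap4, a membrane-bound member known to affect the pace at which T cells die, was at 111, 111, 102 and 97.9 CPM in the libraries labelled Alox15-/- and at 53.2, 64.7, 57.2 and 55.5 CPM in those labelled WT. The groups did not overlap, as was the case with Alox15-/- above WT for 2.75% of all genes tested (5.25% in either direction), and the lowest library labelled Alox15-/- was well clear of the highest labelled WT. This gave a log2 fold change of 0.87 (standard error 0.10), or 1.83-fold, between means of 105 CPM (SD 6.63, n = 4) and 57.6 CPM (SD 4.97, n = 4). Between 266 and 684 reads were counted on Gimap4 in each library. With each library left out in turn the log2 fold change was between 0.83 and 0.93. Its promoter in RefSeq (GRCm38.p6, 250 bases before to 50 after the annotated start) is shown beside that of Gimap9, whose gene lies just upstream on the same strand and which differed less, and that of Gimap7, the member with the next largest difference. Capitals mark the RUNX letters TGTGGT on either strand:
Gimap4, chr6:48684328-48684627, plus strand: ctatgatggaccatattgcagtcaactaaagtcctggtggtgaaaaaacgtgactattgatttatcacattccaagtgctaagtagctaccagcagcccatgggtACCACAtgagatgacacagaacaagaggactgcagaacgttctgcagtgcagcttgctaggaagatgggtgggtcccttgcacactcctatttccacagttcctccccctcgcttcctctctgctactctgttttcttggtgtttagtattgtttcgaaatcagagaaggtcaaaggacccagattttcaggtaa
Gimap9, chr6:48675885-48676184, plus strand: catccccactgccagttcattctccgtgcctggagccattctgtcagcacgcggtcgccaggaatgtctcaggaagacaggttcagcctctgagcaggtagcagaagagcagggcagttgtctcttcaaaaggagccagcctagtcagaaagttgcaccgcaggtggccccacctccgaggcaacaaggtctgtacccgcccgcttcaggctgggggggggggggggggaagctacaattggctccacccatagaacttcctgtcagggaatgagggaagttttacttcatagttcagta
Gimap7, chr6:48718371-48718670, plus strand: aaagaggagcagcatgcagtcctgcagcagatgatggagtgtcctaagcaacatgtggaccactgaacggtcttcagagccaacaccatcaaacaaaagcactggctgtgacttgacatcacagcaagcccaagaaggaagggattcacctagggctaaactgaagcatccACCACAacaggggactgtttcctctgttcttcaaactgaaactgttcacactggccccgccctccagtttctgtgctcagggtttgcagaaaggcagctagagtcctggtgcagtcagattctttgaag
The RUNX letters, a site form used by a family of lymphocyte transcription factors, were found in the windows of Gimap1, Gimap4 and Gimap7 and in 16.8% of all 32851 windows of this length. In Gimap4 they begin 145 bases, in Gimap1 95 bases and in Gimap7 79 bases before the start. Of the other letters searched on both strands, the TATA box TATAAA occurred in the window of Gimap6 (13.6% of all windows), while the ETS letters CCGGAAG (8.86%), the interferon-response letters GAAA repeated at a distance of 2 bases (3.44%) and the AP-1 letters TGANTCA (7.81%) occurred in no member's window. A match is a description of the letters and not of a bound site.

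Gimap7 was the least abundant member and the most uneven. It belongs to the members whose GTPase activity is stimulated when they pair with each other. Its levels were 8.89, 8.64, 4.14 and 4.01 CPM in the libraries labelled Alox15-/- and 3.28, 4.46, 3.71 and 3.34 CPM in those labelled WT. Replicates 1 and 2 labelled Alox15-/- stood above every WT library, while replicates 3 and 4 lay within the WT range. The log2 fold change was 0.74 (standard error 0.30), resting on between 16 and 37 reads per library, and it ran from 0.54 without Alox15-/- replicate 1 to 0.93 without Alox15-/- replicate 4. The spread in the libraries labelled Alox15-/- was 42.2% of the mean, the widest of the family, so the size of this difference is poorly fixed.

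Gimap3 and Gimap5, the near-identical pair, had log2 fold changes of 0.45 (standard error 0.14) and 0.46 (standard error 0.18). Gimap3 was at 67.8, 62.1, 63.6 and 85.0 CPM in the libraries labelled Alox15-/- and at 48.5, 43.2, 64.2 and 47.0 CPM in those labelled WT. Replicate 3 was the highest of the WT libraries and reached into the range of the other group. Without that library the log2 fold change of Gimap3 was 0.60, and without Alox15-/- replicate 4 it was 0.34. Gimap5, which resides on lysosomal membranes, was at 22.3, 15.1, 21.8 and 23.6 CPM against 18.4, 14.02, 11.7 and 17.1 CPM. Here Alox15-/- replicate 2 lay within the WT range, and leaving it out gave 0.58, while without WT replicate 3 the value was 0.35. Within a library the ratio of Gimap3 to Gimap5 reads averaged 3.41 (SD 0.551, n = 4) under the Alox15-/- label and 3.48 (SD 1.34, n = 4) under the WT label, and these means differed by less than either SD.

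Gimap8, the member with 3 P-loops, was at 44.7, 31.3, 25.4 and 36.9 CPM in the libraries labelled Alox15-/- and at 26.0, 19.1, 23.6 and 27.6 CPM in those labelled WT. Through Alox15-/- replicate 3 the groups overlapped, and the log2 fold change was 0.52 (standard error 0.17). Gimap9 was between 47.4 and 67.3 CPM against 44.0 to 50.7 CPM, with a log2 fold change of 0.28 (standard error 0.12). For Gimap6, which binds an ATG8-type autophagy protein, the level was between 63.2 and 81.1 CPM against 55.4 to 70.6 CPM, with a log2 fold change of 0.22 (standard error 0.12), or 0.14 without Alox15-/- replicate 4. Gimap1, needed for the survival of mature lymphocytes, was between 41.6 and 47.5 CPM against 33.5 to 47.8 CPM, with a log2 fold change of 0.18 (standard error 0.13), which ran from 0.11 without WT replicate 2 to 0.28 without WT replicate 4. The differences of Gimap1 and Gimap6 were the smallest of the family, and the highest Gimap1 level of all 8 libraries was in a WT library.

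Taken as a sum, the 8 members averaged 409.6 CPM (SD 33.3, n = 4) under the Alox15-/- label and 299.4 CPM (SD 13.6, n = 4) under the WT label, with ranges of 369.9 to 441.4 and 285 to 312.9 CPM. Without Gimap4 the sums were 304.2 ± 34.5 and 241.8 ± 16.5 CPM (SD, n = 4 each), with ranges of 268.1 to 343.5 and 220.3 to 257.4 CPM. These ranges did not overlap, as was the case in this direction for 2.75% of single genes tested. Each member left in this sum overlapped between the groups on its own. The sums come from the values with which the family was chosen, and nothing is read from them. Shares of the GIMAP counts do not depend on how libraries were scaled to each other. Gimap4 took a mean of 25.9% (SD 2.67, n = 4) of the family's counts under the Alox15-/- label and 19.3% (SD 2.28, n = 4) under the WT label, while Gimap6 took 17.3% ± 0.993 against 20.4% ± 1.79 and Gimap1 10.9% ± 1.10 against 13.1% ± 1.57 (SD, n = 4 each). The lowest Gimap4 share in a library labelled Alox15-/- (22.2%, replicate 4) was just under the highest in a WT library (22.7%, replicate 2). Relative to its chromosome neighbour Gimap9, Gimap4 had 1.86 ± 0.296 reads per read (SD, n = 4) against 1.22 ± 0.162 (SD, n = 4).

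**Figure D2:**
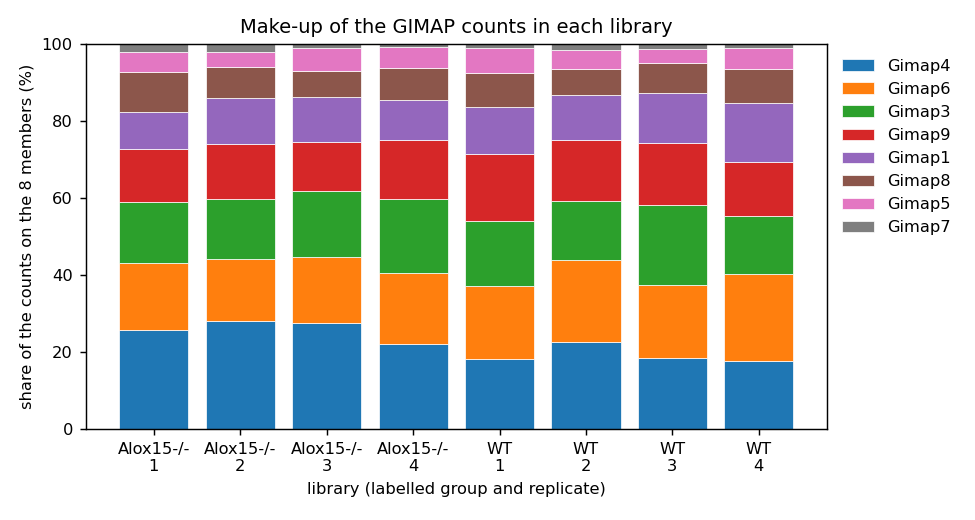
Share of each member in the counts on all 8 GIMAP genes (%), 1 stacked bar per library, labelled by group and replicate. Gimap4 at the base of the bars takes between 22.2% and 28.1% in the libraries labelled Alox15-/- and between 17.7% and 22.7% in those labelled WT.

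To see whether the differences ended with the family, genes beside the cluster were taken from the fit over all genes. Of 47 annotated genes within 500 kb of either end 13 were tested, 8 with a log2 fold change above 0 and 5 below, with a median of 0.079. The edgeR quasi-likelihood test gave an adjusted p under 0.05 for 1 of the 13, where 1.24% of all genes tested passed, and an unadjusted p under 0.05 for 4, where 7.84% did. The 4 were Tmem176a and Tmem176b, adjacent genes for membrane proteins, and Gpnmb above 0 and Igf2bp3 below 0. Gpnmb, which encodes a transmembrane glycoprotein of macrophages and pigment cells, was the gene past the adjusted threshold. It was at 8.41, 24.3, 15.8 and 4.87 CPM in the libraries labelled Alox15-/- and at 1.61 CPM or less in each WT library, with a fitted log2 fold change of 3.79 (standard error 0.52). It met the filter of 2 CPM in 4 libraries through the higher group alone, so its call is given without a p and supports nothing. The Gpnmb levels followed the summed myeloid markers in their order among the 4 libraries labelled Alox15-/- (81.7, 332, 206 and 47.8 CPM); their part in the result was not tested. The nearest tested genes on each side were Zfp775 at 24.01 kb (log2 fold change -0.15, adjusted p = 0.913) and Tmem176b at 63.0 kb (0.72, adjusted p = 0.359, edgeR quasi-likelihood test), and Tmem176a beyond it had a log2 fold change of 0.66 (adjusted p = 0.322). Inside the cluster, the non-coding RNAs Gimap1os (0.55, adjusted p = 0.753) and 4833403J16Rik (0.88, adjusted p = 0.432) were tested in the same edgeR fit and did not pass. Without Alox15-/- replicate 2, 3 or 4 no neighbour was called, since Gpnmb then missed the filter of 4 libraries, and without replicate 1 it missed the filter too and Tmem176a was called instead.

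**Figure D3:**
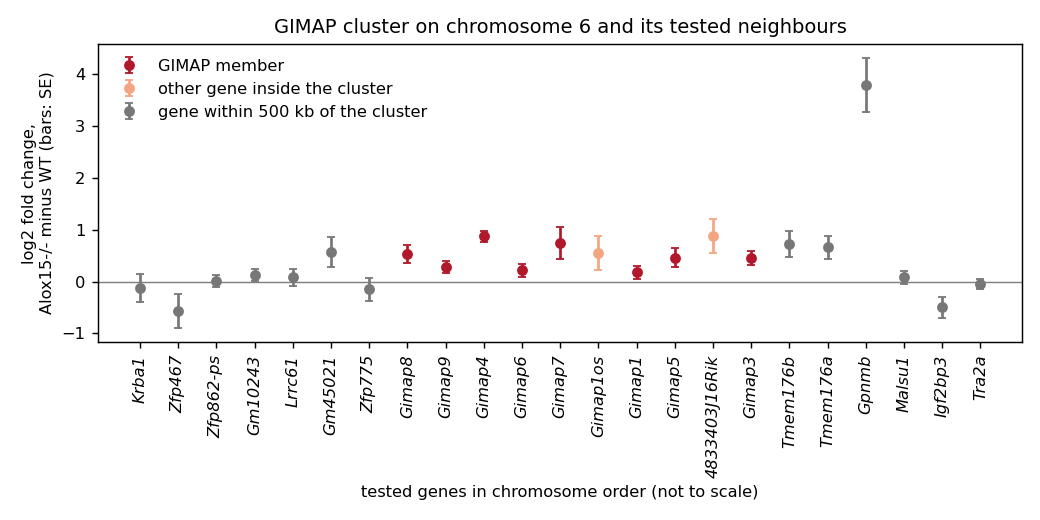
Log2 fold change (libraries labelled Alox15-/- minus WT) with its standard error for each tested gene of the GIMAP cluster and within 500 kb, in chromosome order and not to scale, with members in red, other genes inside the cluster in orange and genes beside it in grey. The 8 members lie between 0.18 and 0.87, and apart from Gpnmb at 3.79 the genes beside the cluster lie between -0.57 and 0.72.

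Genes for proteins with which GIMAPs are known to act were taken from a list of BCL2 family proteins that set the threshold for apoptosis, ATG8-type autophagy proteins, GSK3 kinases and calmodulins. Of these, 0 of the 17 tested genes passed the threshold, with a median log2 fold change of 0.041 (edgeR quasi-likelihood test, where 2 had an unadjusted p under 0.05). At the shares of 1.24% and 7.84% over all genes tested, counts this low are near the background for a list of this size, and the same holds for the next 2 lists. Values ran from -0.46 for Bcl2l1, which encodes the anti-apoptotic BCL-XL (adjusted p = 0.616), to 0.26 for the pro-apoptotic Bak1 (adjusted p = 0.617). Of 10 lymphocyte transcription factors 0 passed either, from -0.34 for Gata3 (adjusted p = 0.519) to 0.22 for Fli1 (adjusted p = 0.806), and 1 had an unadjusted p under 0.05. Runx1 and Runx3 were at 0.18 (adjusted p = 0.782) and 0.03 (adjusted p = 0.988). GIMAP genes are known to be abundant in resting T cells, so genes of naive and resting T cells were set beside them. 0 of the 17 tested passed, with a median of 0.066 and 2 at an unadjusted p under 0.05, and the values ran from -0.21 for Lef1 (adjusted p = 0.804) to 0.65 for Dapl1 (adjusted p = 0.101). All 12 activation genes had log2 fold changes below 0, where 48.2% of all genes tested were above 0, with a median of -0.15 and several values near 0 (-0.007 for Myc, -0.028 for Slc3a2 and -0.029 for Cd69). Of the 12, 3 had an unadjusted p under 0.05 (edgeR quasi-likelihood test), where 7.84% of all genes tested did. These were Mki67, Cd83 (log2 fold change -0.69, adjusted p = 0.118) and Irf4 (-0.38, adjusted p = 0.561). Mki67, which marks dividing cells, was the 1 that passed, falling by 1.69 on the log2 scale (standard error 0.36, adjusted p = 0.0270), where 0.197% of all genes tested passed as lower. Its size rested largely on WT replicate 3 (193 CPM, against 50.9 to 75.5 CPM in the other WT libraries and 19.7 to 41.2 CPM under the Alox15-/- label), and without that library it was -1.04 (edgeR adjusted p = 0.0191). The call of Mki67 was lost without Alox15-/- replicate 1, 2 or 3, in edgeR's robust fit, in limma-voom and in DESeq2.

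Other GTPases of immune cells are the guanylate-binding proteins and the immunity-related GTPases, both known to be induced by interferon. Of 6 guanylate-binding protein genes tested, 5 rose (Gbp2, Gbp5, Gbp7, Gbp8 and Gbp9) against 1.05% of all genes, with a median log2 fold change of 0.89 over the 6 and the lowest value in Gbp3 (0.45). Gbp8 averaged 14.96 CPM (SD 1.71, n = 4) against 7.69 CPM (SD 0.943, n = 4), a log2 fold change of 0.95 (adjusted p = 0.00756, edgeR). Leaving out 1 library took the number of these genes past the threshold to as few as 2, without Alox15-/- replicate 1 or WT replicate 1, and to 3 without replicate 2 of either group. Of 10 immunity-related and very large GTPase genes tested, 4 passed the same threshold as higher genes (Irgm2, Tgtp2, Gvin1 and Gm4070), against 1.05% of all genes. With 1 library left out this number ran from 3 to 6. All 10 genes had a log2 fold change above 0, with a median of 0.82. Their values ran from 0.11 for Ifi47 to 1.72 for Gm4070 (standard error 0.19, adjusted p = 1.17e-04), a range that takes in all 8 GIMAP members. These gene groups were already known to be higher when they were chosen, and whether the GIMAP values differ from theirs was not tested.

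**Figure D4:**
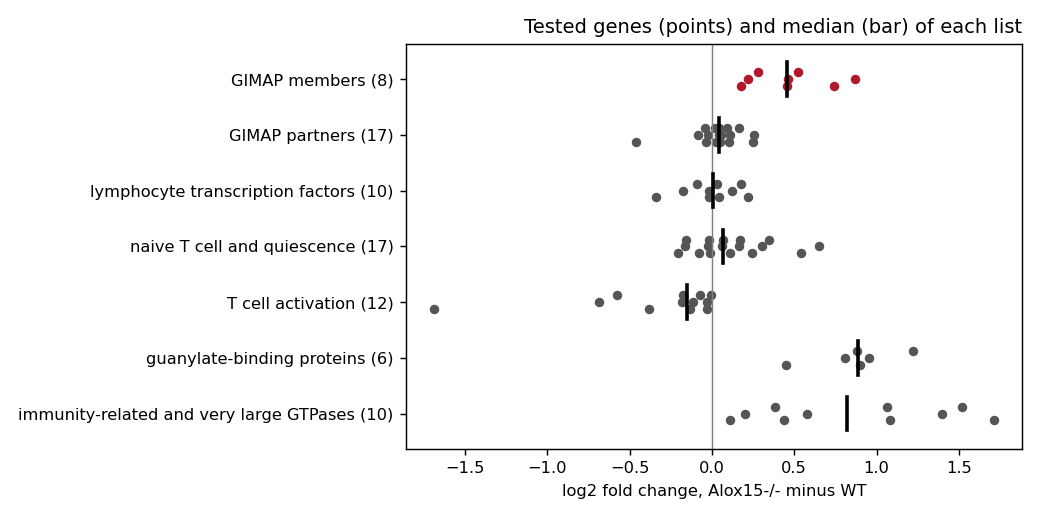
Log2 fold change (libraries labelled Alox15-/- minus WT) of each tested gene in the GIMAP family and 6 other lists, with the number of genes in parentheses and a bar at the median. The median is 0.46 for the GIMAP members, between -0.15 and 0.066 for the partners, transcription factors, resting and activation genes, and 0.89 and 0.82 for the other GTPase families.

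Markers of other cells moved with the groups. The NK and γδ T cell list, cells that also belong to the lymphocytes, summed to 145, 169, 147 and 87.2 CPM in the libraries labelled Alox15-/- and to 43.8, 33.6, 53.3 and 45.3 CPM in those labelled WT. By an exact permutation test, taken as two-sided, p was 0.0286, which is as low as 4 libraries against 4 can go (0.0514 after Benjamini–Hochberg adjustment over 9 lists). No list was under 0.05 after this adjustment. The sum was carried by the 4 γδ T cell receptor genes of the list, among them Trdc (65.3 against 18.3 CPM), which were also its 4 genes past the threshold, whereas the groups overlapped for each of its 8 NK cell genes. Alox15-/- replicate 4 had the lowest sum of its group in each of these 5 lists, and it also had the lowest Gimap4 (97.9 CPM) and Gimap7 (4.01 CPM) of the group. It had the highest Gimap3 (85.0 CPM), Gimap5 (23.6 CPM), Gimap6 (81.1 CPM) and Gimap9 (67.3 CPM) of the group, and lay between the others for Gimap1 (45.5 CPM) and Gimap8 (36.9 CPM). Erythroid markers ran from 915 to 3504 CPM against 71.9 to 139 CPM, mast cell and basophil markers from 140 to 358 CPM against 57.5 to 82.5 CPM, eosinophil markers from 20.9 to 71.5 CPM against 1.25 to 10.2 CPM, and myeloid markers from 47.8 to 332 CPM against 10.8 to 18.6 CPM, with the same exact permutation p. In the fit over all genes the number of markers past the threshold was 5 of 6 tested for the erythroid list, 7 of 8 for mast cells and basophils, 2 of 2 for eosinophils, 5 of 6 for myeloid cells, and 4 of 6 for NK and γδ T cells, all as higher genes, beside 1.05% of all genes. Of the 4 B cell markers tested, 1 passed as lower, Ms4a1 (0.547 against 3.25 CPM), beside 0.197% of all genes. Of these, 1 erythroid, 3 mast cell and basophil, 1 myeloid and Ms4a1 met the filter only through the group in which they were higher. The T cell list gave 3406 ± 135 against 3531 ± 70.3 CPM (SD, n = 4 each, exact permutation p = 0.171, adjusted p = 0.193), and the B cell list had an exact permutation p of 0.943. The CD8 T cell list summed to between 12.02 and 21.8 CPM against 21.3 to 31.6 CPM, and the Treg list gave 2492 ± 93.4 against 2650 ± 172 CPM (SD, n = 4 each, exact permutation p = 0.143). No marker with counts was at 0 in all 8 libraries, while Ahsp of the erythroid list and Folr4 of the Treg list were not among the symbols counted. According to the methods, the naïve CD4+ T cells had been isolated from spleen cells by immunomagnetic negative selection. The part of the other cells in the GIMAP levels was not tested.

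Over the 8 libraries the genes whose log2 CPM followed Gimap4 most closely were Gm5292 (Pearson's r = 0.98, Spearman's rho = 0.88), Gm8420 (0.97 and 0.69), Ifitm1 (0.97 and 0.91), Il6 (0.96 and 0.95) and Irgm2 (0.96 and 0.83). Each of these was higher in the libraries labelled Alox15-/-, and with 2 groups of 4 libraries such a likeness includes the difference between the groups. After the mean of each group was subtracted, the summed GIMAP level was followed most closely by Erich1 (r = 0.98), Trpm7 (0.97), Ino80 (0.97), Cul3 (0.96) and Nol8 (0.96). These are the highest values among all genes tested over 8 points, and they are given as a description only.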

How the data were processed

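Unnormalized read counts, 1 row per gene symbol, were deposited by the authors for 4 libraries labelled Alox15-/- and 4 labelled WT. The methods name MACE-seq on an Illumina sequencer, and the labels a small RNA kit. The submitters' processing notes name Bowtie, edgeR and GRCm38; the counting tool, strand setting and duplicate removal are not given in the sources used here. Depth ranged from 3723151 to 9538962 counts, which sets the counting error. Of the 28239 symbols, the 12700 that reached 2 CPM in 4 or more libraries were tested by edgeR 4.0.16 (R 4.3.3), with TMM scaling, the quasi-likelihood test and Benjamini–Hochberg adjustment over all genes tested, threshold 0.05. Marker sums were compared by exact permutation tests (scipy 1.17.1). Replicates are taken as separate mice, 4 per genotype, as the series' design text states. Every pair of libraries within a group differed by more than sampling noise (chi-square per degree of freedom of at least 4.63). Positions came from GENCODE M21, promoters from RefSeq, and sequence matches from blastn 2.17.0. The fit was checked on simulated counts.

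The members and gene lists were chosen with earlier results of these data known. Named genes are the members, Alox15, the neighbours past the threshold or nearest the cluster, list genes past the threshold or at the ends of their range, and the 5 genes most like Gimap4 or the summed family. Runx1, Runx3, Tmem176a, Igf2bp3, Trdc, Slc3a2, Cd69, Cd83, Irf4, Ccr3, Gimap4's ratio to Gimap9 and Gm28053 were named after their values were seen. Alternatives were other scalings, filters and tests (limma 3.58.1, DESeq2 1.42.0), a replicate block and each library left out.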

Additional observations from a re-analysis of the deposited data

How the results depend on the processing

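All 8 members kept a log2 fold change above 0 in each of the 18 alternatives, which is a description of the values with which the family was chosen and no sign of stability. Leaving out 1 library gave a median of 0.36 to 0.54 over the members and 1 to 2 members past the threshold, Gimap3 being the second without WT replicate 3. The number of genes past the threshold was 388 with no filter on low counts, against 158, and between 86 and 173 with 1 library left out (95 without Alox15-/- replicate 1, 86 without replicate 2, 93 without replicate 3 and 105 without WT replicate 2). With no filter, where 1.37% of all genes passed, 3 neighbours were called, and the lists had 2 (Treg), 4 (eosinophil), 2 (B cell), 1 (CD8), 1 (naive), 4 (activation), 1 (partners) and 7 (immunity-related GTPases) genes past the threshold. Of the 4 eosinophil genes, Ccr3 was lower under the Alox15-/- label (0.107 against 1.63 CPM). Its WT mean rested on replicate 2 (6.21 CPM). The naive list had 1 with the likelihood-ratio test and with DESeq2, the activation list 2 with the likelihood-ratio test and 0 in the robust fit and limma-voom, and the myeloid list 3 in the latter 2. With 1 library left out the ranges were 0 to 1 for the neighbours, B cell, naive, activation and transcription factor lists (1 resting gene without Alox15-/- replicate 2, Gata3 without Alox15-/- replicate 1, 0 B cell genes without any 1 WT library), 4 to 7 for mast cells and basophils and 2 to 5 for guanylate-binding proteins. The mast cell and basophil list lost 3 genes that missed the filter without any 1 Alox15-/- library, the neighbours lost Gpnmb in the same way, and the B cell list lost its gene to the filter without any 1 WT library. The cause of the other moves was not tested. With the replicate number as a block, 146 genes, 1 member and 2 activation genes passed. Deviations of same-numbered libraries correlated between -0.178 and 0.165, and those of differently numbered libraries between -0.213 and 0.149. No pairing by number was seen in these values, but with 4 libraries per group they cannot settle whether there was one. Exact tests of 3 against 4 libraries cannot reach 0.05 and were not run. Low counts limit Gimap7 most, with 16 to 37 reads per library.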

Other observations

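Within the groups the members did not follow each other as a block. After the mean of each group was subtracted, 15 of the 28 pairs of members had a positive correlation of log2 CPM over the 8 libraries, with a median r of 0.078. The highest value was for Gimap4 and Gimap7 (r = 0.79) and the lowest for Gimap4 and Gimap5 (r = -0.56), all given as descriptions over 8 points that share the scaling of their library. In none of the 16 sets of 4 libraries, 8 members in 2 groups, did a single library stand apart from the other 3 by Dixon's criterion.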
